A study of Xenopus laevis with 4 samples.

Results

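Cyclins, cyclin-dependent kinases (Cdks), Cdc25 phosphatases and mitotic kinases were examined in the transcriptomes of *X. laevis* early gastrulae with and without antisense knockdown of Gcn5. Members were taken by gene symbol: A, B, D, E and G cyclins, Cdks and their inhibitors, Cdc25a to Cdc25c, Wee1 and Myt1 (*pkmyt1*). The symbols also covered Polo-like kinase 1, Aurora kinases, Bub1, Bub3, Ttk, Mad2l1, and subunits and activators of the anaphase-promoting complex (APC/C). This gave 77 of the 45098 gene models in the deposited table, with 47 symbols and with the L and S homeologs of a gene kept as separate models. Of these, 74 had at least 1 read. The 58 whose mean over both groups reached 10 normalized counts (reads divided by the library's size factor) were tested, and 19 lay under that minimum. No rows were found under the names *cdk2*, *wee1*, *bub1b* and *cdc20*, and cyclin B1 was present only as *ccnb1.2*; these genes were not analysed here.

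Both groups were whole *X. laevis* embryos, with no allele named in the labels, injected at the 1-cell stage and collected at stage 10.5, the early gastrula. Gcn5-AS embryos received 0.8 ng of an antisense oligonucleotide against *gcn5* mRNA (gene symbol *kat2a*), and control embryos received water. Each group had 2 samples of 10 pooled embryos, and the treatment text of the control samples repeats the Gcn5-AS injection, so groups were taken from sample titles and the knockdown label. The sources do not say whether samples of a group came from separate clutches, and p-values therefore describe no more than the variation among these 4 samples, some of which may be technical. Gcn5 is a histone acetyltransferase and the catalytic subunit of the SAGA co-activator complex, and the comparison asks which transcripts differ when its mRNA is targeted. The paper reports that Gcn5-knockdown embryos were impaired in involution and arrested in development, with apoptosis seen mainly ventrally. The part of that arrest in the values below was not tested. In whole embryos, fewer cells with a transcript and less transcript per cell cannot be told apart.

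The oligonucleotide is shown because it defines the only treatment in the comparison. It carries dimethyl-ethylene-diamine (DMED) modifications on 11 linkages. Capitals mark the 7 bases between the modified flanks, the unmodified core that can direct RNase H to the paired mRNA, written 5′ to 3′ over 18 bases:
Gcn5-AS: tcaaaCACAAGCcgggtt

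Cell cycle Cdks phosphorylate proteins that drive DNA replication and mitosis, and they are activated by binding a cyclin partner. Wee1 and Myt1 hold Cdk1 inactive by phosphorylation, Cdc25 phosphatases remove that block, and the APC/C marks mitotic cyclins for destruction so that cells can leave mitosis. Early *Xenopus* embryos cleave rapidly on maternal cyclin mRNAs, and longer cycles with gap phases appear after the midblastula transition, before gastrulation. Cyclin A1 and cyclin E1 are largely maternal in this species, whereas cyclin A2 and D cyclins are associated with the cycles that follow.

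The deposited table gives group means only, and whole reads per library were recovered from them exactly. The libraries are called X and Y within each group, because the means do not show which is replicate 1 or 2, and a letter does not link libraries of different groups. Gene-assigned reads came to 3610092 to 3679948 per Gcn5-AS library and 2351039 to 4093025 per control library, of which the 10 most abundant models took 35.1% to 49.8%. Both models of the targeted gene had lower group means in Gcn5-AS, but groups overlapped and neither model was called. *kat2a.L* had 52.9 and 62.6 normalized counts in Gcn5-AS and 50.4 and 103.5 in controls (1.33-fold lower, adjusted p = 0.742, limma-voom). *kat2a.S* had 13.7 and 35.5 in Gcn5-AS and 27.9 and 45.7 in controls (1.49-fold lower, adjusted p = 0.445, limma-voom). The paper found *gcn5* mRNA depleted when measured by RT-qPCR, and less Gcn5 protein bound to promoters. Those measurements were not examined here. Of 37 models of early gastrula marker genes, 34 passed the minimum. Of 25 models of later differentiated tissues, 12 were at 0 in all 4 libraries, among them those of *hba1*, *hbg1* and *mylpf*. Another 5 passed the minimum: *krt8.L* and *krt8.S*, at means of 2228 and 634 normalized counts, *myod1.L*, *myod1.S* and *ckm.L*. This later list summed to 2840 to 3375 normalized counts in Gcn5-AS and 2453 to 3201 in controls. Nearly all of that sum came from the *krt8* models, so it is no measure of later tissues in general. Summed early gastrula markers were at 11355 to 13999 normalized counts in Gcn5-AS and 6753 to 6823 in controls. Among these markers, both models of *eomes*, *foxi2*, *gsc*, *mix1* and *not*, and *sox17b.1.S*, were called higher in Gcn5-AS. Of all models tested, 4.46% were called higher. The abundant models of *sox17a* and *mixer.L* were not called, and some others, such as *t.L* and *gata4.L*, had no higher group mean. The part of these markers in the results was not tested.

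Among the cell cycle regulators, 1 model rose and 1 fell in Gcn5-AS embryos (limma-voom on the recovered reads, Benjamini-Hochberg adjustment over 11272 models, called at an adjusted p under 0.1). The Aurora kinase model *aurka.L* was 2.37-fold higher and the APC/C subunit model *anapc1.S* was 2.81-fold lower. These 2 of 58 are 3.45%, against 8.63% of all models tested (4.46% higher and 4.17% lower). The paper's DESeq comparison, at the same threshold of adjusted p, gave fewer transcripts in each direction, with more lower than higher. At an unadjusted p under 0.05, 4 members were higher and 5 lower, together 15.5%, against 11.8% and 10.2% of all models, together 22%. Both Gcn5-AS libraries lay above both controls for 12 members and below both for 11, together 39.7%, against 26.3% and 25% of all models, together 51.4%.

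In the other 56 tested members the 2 libraries of a group did not separate the groups past the threshold. By the ratio of group means, 31 of 58 members were higher and 27 lower, with a median log2 ratio of 0.04, beside 0.03 over all 11272 models. The log2 ratios ran from -1.97 to 1.24. With scaling by total reads in place of the deposited size factors, the median log2 ratio over all models was -0.13, a shift of -0.16, and the members' median was -0.16. Under that scaling, which called 1.69% of all models, neither *aurka.L* nor *anapc1.S* was called. It called 19 models higher and 171 lower among all models, against 503 higher and 470 lower with the deposited size factors. Reads were not corrected for transcript length, so levels are compared between groups for 1 model at a time.

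**Figure D1:**
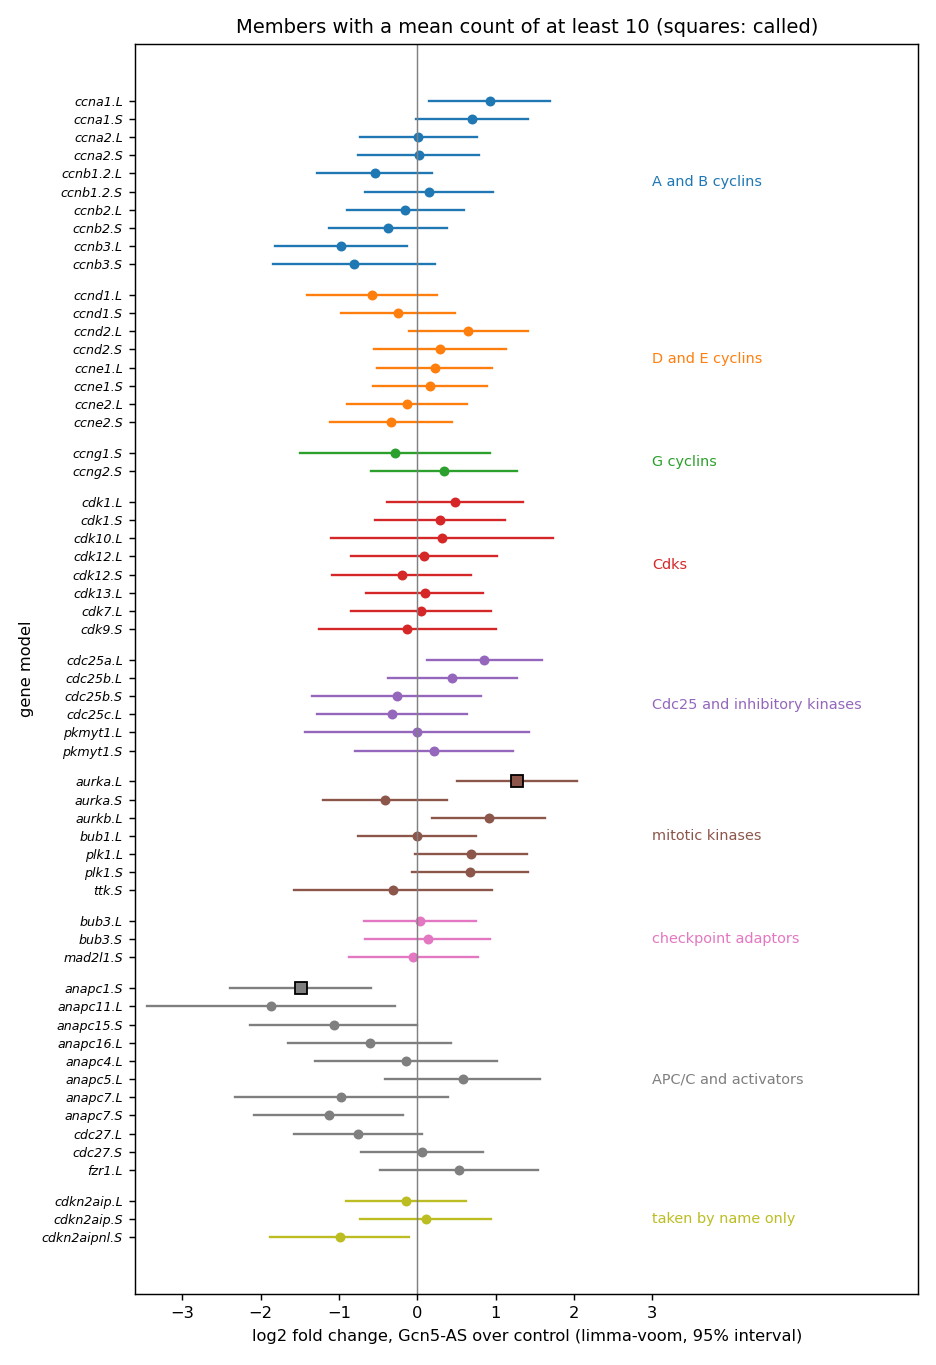
Log2 fold change, Gcn5-AS over control, of the 58 tested members (points, limma-voom estimate; lines, 95% interval), grouped and coloured by role. Squares mark the called models, *aurka.L* at 1.27 and *anapc1.S* at -1.49; the Aurora and Polo-like kinases lie mostly to the right of 0 and most APC/C subunits to the left.

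A and B cyclins partner Cdk1 at entry into mitosis, and cyclin A also acts in S phase. The maternal form *ccna1* was the A cyclin with separated groups. *ccna1.L* had 695 and 971 normalized counts in Gcn5-AS embryos, against 323 and 584 in controls (1.84-fold, log2 fold change 0.92 ± 0.37 SE, adjusted p = 0.149, limma-voom). *ccna1.S* had 323 and 383 in Gcn5-AS and 194 and 243 in controls (1.62-fold, adjusted p = 0.24). For both homeologs each Gcn5-AS library lay above each control, and neither passed the test.

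Cyclin A2 is the somatic A cyclin of vertebrates. *ccna2.L* had 1128 and 1098 normalized counts in Gcn5-AS and 964 and 1235 in controls, which is a difference of 0.01 on the log2 scale (95% interval -0.73 to 0.76). *ccna2.S* had 590.1 and 965 in Gcn5-AS and 589.7 and 932 in controls. Groups overlapped for both homeologs, and the libraries of each group differed more for *ccna2.S* than the group means did.

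For the B cyclins, 5 of 6 models had lower group means in Gcn5-AS, with a median log2 ratio of -0.46, and none was called. Leaving out 1 library moved that median between -0.15 without control X and -0.75 without Gcn5-AS Y. Under scaling by total reads all 6 were lower, at a median of -0.70. That scaling also lowered the median over all models, from 0.03 to -0.13. *ccnb3.L* stood farthest from its controls, with 39.2 and 29.9 normalized counts in Gcn5-AS, against 72.4 and 63.2 in controls (1.96-fold lower, log2 fold change -0.98 ± 0.41 SE, adjusted p = 0.161, limma-voom). Cyclin B3 is the B-type cyclin that is distinct from B1 and B2 in sequence and acts at anaphase in several animals. *ccnb3.S* had 16.5 and 16.8 in Gcn5-AS and 35.4 and 21.5 in controls (adjusted p = 0.353), so that both homeologs lay below both controls.

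Cyclins B1 and B2 are the main partners of Cdk1 in maturation-promoting factor. *ccnb1.2.L* had 295 and 391 normalized counts in Gcn5-AS and 616 and 401 in controls (adjusted p = 0.382), with both Gcn5-AS libraries below both controls. *ccnb1.2.S* had 156 and 188 in Gcn5-AS, inside the span of 235 and 96.8 in controls. The control libraries of *ccnb1.2.S* differed more from each other than the group means did.

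*ccnb2.L* had 171 and 295 normalized counts in Gcn5-AS and 256 and 242 in controls. *ccnb2.S* had 181 and 287 in Gcn5-AS and 350.1 and 246 in controls (1.28-fold lower, adjusted p = 0.571). Groups overlapped for both *ccnb2* homeologs, with Gcn5-AS X the lowest library of each.

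D cyclins bind Cdk4 and Cdk6 in G1 and link the cycle to growth signals. Both *ccnd1* models lay below both controls, *ccnd2.L* lay above both and *ccnd2.S* overlapped. *ccnd1.L* had 41.9 and 36.4 normalized counts in Gcn5-AS and 63.8 and 52.4 in controls (1.48-fold lower, adjusted p = 0.417), and *ccnd1.S* had 148 and 126 in Gcn5-AS and 161 and 163 in controls (adjusted p = 0.724). *ccnd2.L* had 131 and 135 in Gcn5-AS and 98.6 and 68.6 in controls (1.58-fold, adjusted p = 0.304), and *ccnd2.S*, with 79.7 and 49.5 in Gcn5-AS and 60.6 and 41.7 in controls, overlapped. None of the 4 D cyclin models passed the test, and a difference between the 2 genes was not tested.

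E cyclins activate Cdk2 at the start of S phase. Group means of all 4 E cyclin models lay within a log2 ratio of -0.28 to 0.21. *ccne1.L* had 300.2 and 419 normalized counts in Gcn5-AS and 253 and 368 in controls, and *ccne1.S* had 809 and 655 in Gcn5-AS and 565 and 739.6 in controls. *ccne2.L* had 177 and 323 in Gcn5-AS and 222 and 308 in controls, and *ccne2.S* had 64.6 and 103 in Gcn5-AS and 105 and 98.2 in controls. Groups overlapped in all 4, with adjusted p-values of 0.636 to 0.87.

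Cyclins G1 and G2 are atypical cyclins associated in mammals with the p53 response and with cell cycle arrest. *ccng1.S* had 8.93 and 41.1 normalized counts in Gcn5-AS and 16.6 and 35.0 in controls, and *ccng2.S* had 29.5 and 41.1 in Gcn5-AS and 22.5 and 36.3 in controls. Both overlapped between groups. The homeolog *ccng2.L* lay under the minimum and had 15 and 19 reads in the Gcn5-AS libraries, against 2 and 3 reads in controls. When every model with a read was fitted, its log2 fold change was 2.62 and its adjusted p 0.13; this model was singled out after its values were seen.

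Cdk1 is the kinase subunit of maturation-promoting factor. *cdk1.L* had 41.9 and 71.0 normalized counts in Gcn5-AS embryos, against 39.7 and 36.3 in controls (1.49-fold, log2 fold change 0.49 ± 0.42 SE, adjusted p = 0.522, limma-voom). *cdk1.S* had 48.1 and 70.1 in Gcn5-AS and 50.9 and 41.7 in controls (adjusted p = 0.71). Only the L homeolog had both Gcn5-AS libraries above both controls, the lower of them by a small margin.

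The other tested Cdks act mainly outside the cell cycle engine. Cdk7 is the Cdk-activating kinase and a subunit of the general transcription factor TFIIH, Cdk9 releases paused RNA polymerase II, Cdk12 and Cdk13 phosphorylate elongating RNA polymerase II, and Cdk10 partners cyclin M in human cells. *cdk7.L* had 30.9 and 56.0 normalized counts in Gcn5-AS and 41.8 and 36.3 in controls, and *cdk9.S* had 13.1 and 23.4 in Gcn5-AS and 22.0 and 12.1 in controls. *cdk12.L* had 54.3 and 28.0 in Gcn5-AS and 46.6 and 26.9 in controls, and *cdk12.S* had 49.5 and 34.6 in Gcn5-AS and 61.6 and 33.6 in controls. *cdk13.L* was at 179 to 274 in Gcn5-AS and 179 to 245 in controls, so that groups overlapped in all of these. *cdk10.L* had 12.4 and 12.1 in Gcn5-AS and 11.8 and 5.38 in controls and passed the minimum only through its Gcn5-AS mean. The 8 tested Cdk models had adjusted p-values of 0.522 to 0.962; 7 had a higher group mean in Gcn5-AS (6 of 7 without *cdk10.L*), but 5 of 8 under scaling by total reads and 3 of 8 under scaling by reads outside the 10 most abundant models.

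Cdk inhibitors bind and block Cdks, and all 6 of their models lay under the minimum. *cdkn1a*, which encodes p21 and is a p53 target in mammals, had 3 reads in Gcn5-AS Y for each homeolog and 0 reads in the other 3 libraries. *cdkn2b.L* had 2 reads in Gcn5-AS Y alone, *cdkn2b.S* had none, *cdkn2c.L* had 1 and 0 reads in Gcn5-AS and 2 and 2 in controls, and *cdkn2c.S* had 3 and 5 in Gcn5-AS and 0 and 3 in controls. A count of 0 allows up to 3 reads (95%, counting error only), so no difference was detectable at this depth.

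Cdc25 phosphatases activate Cdks, and in *Xenopus* Cdc25a has a known part in the cleavage cycles. *cdc25a.L* had 800.4 and 499 normalized counts in Gcn5-AS embryos, against 329.7 and 367 in controls. Both Gcn5-AS libraries lay above both controls, with Gcn5-AS X the highest (1.86-fold, log2 fold change 0.86 ± 0.36 SE, 95% interval 0.12 to 1.59, adjusted p = 0.161, limma-voom). Without Gcn5-AS Y the model was called (adjusted p = 0.0251), a fit that called 20% of all models, and without Gcn5-AS X the log2 ratio of group means was 0.52, against 0.90 with all libraries, and the adjusted p 0.623.

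*cdc25b.L* had 124 and 65.4 normalized counts in Gcn5-AS and 70.2 and 61.9 in controls (1.43-fold, adjusted p = 0.532), with Gcn5-AS X alone above both controls. *cdc25b.S* had 32.3 and 13.1 in Gcn5-AS and 32.2 and 17.5 in controls. *cdc25c.L* had 22.7 and 36.4 in Gcn5-AS and 45 and 24.2 in controls. These 2 models overlapped between groups. Myt1, the membrane-bound Cdk1 inhibitory kinase encoded by *pkmyt1*, differed little: *pkmyt1.L* had 17.2 and 6.54 in Gcn5-AS and 13.9 and 6.72 in controls (adjusted p = 0.999), and *pkmyt1.S* had 25.4 and 20.5 in Gcn5-AS and 20.4 and 18.8 in controls (adjusted p = 0.833).

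Mitotic kinases had a median log2 ratio of 0.69 over 7 models, beside 0.03 over all models tested; 4 of 7 were higher, under both other scalings as well. The call of 1 in 7 stands beside 8.63% of all models. Aurora A acts at centrosomes and in spindle assembly. *aurka.L* had 140.1 and 163 normalized counts in Gcn5-AS embryos, against 55.2 and 72.6 in controls. Both Gcn5-AS libraries were far above both controls (2.37-fold, log2 fold change 1.27 ± 0.37 SE, 95% interval 0.50 to 2.04, adjusted p = 0.0522, limma-voom). The call was lost under scaling by total reads (adjusted p = 0.428, limma-voom) and by reads outside the 10 most abundant models (0.129). The log2 ratio of group means was 1.24, against 1.11 and 1.05 under these scalings. That ratio was 1.06 without control X and 1.45 without control Y. The call was lost in both of these fits too, which called a far smaller share of all models than the main fit.

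The S homeolog of Aurora A did not share this pattern. *aurka.S* had 63.2 and 82.2 normalized counts in Gcn5-AS and 79.9 and 118 in controls (1.36-fold lower, log2 fold change -0.41, 95% interval -1.20 to 0.38). Gcn5-AS Y lay just above control X, so the groups overlapped. With the 2 homeologs summed, the log2 ratio of group means was 0.46 and the adjusted p 0.404.

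Aurora B is the kinase of the chromosomal passenger complex. *aurkb.L* had 464 and 418 normalized counts in Gcn5-AS embryos, against 198 and 277 in controls (1.85-fold, log2 fold change 0.91 ± 0.35 SE, 95% interval 0.19 to 1.64, adjusted p = 0.129, limma-voom). The groups did not overlap, and the model passed the threshold in no fit over all 4 libraries. Its log2 ratio of group means was 0.89, and with each library left out it lay between 0.67 without control X and 1.15 without control Y.

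Polo-like kinase 1 promotes mitotic entry, centrosome maturation and APC/C activation. *plk1.L* had 673 and 616 normalized counts in Gcn5-AS and 374 and 426 in controls (1.61-fold, adjusted p = 0.243), and *plk1.S* had 1422 and 1079 in Gcn5-AS and 735 and 809.6 in controls (1.62-fold, adjusted p = 0.275). For both homeologs all Gcn5-AS libraries lay above all controls at nearly the same ratio, and neither passed the test.

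Bub1 and Ttk (Mps1) are kinases of the spindle assembly checkpoint, which holds anaphase until chromosomes are attached. *bub1.L* had 102 and 102 normalized counts in Gcn5-AS and 119 and 84.7 in controls (adjusted p = 0.995), and *ttk.S* had 8.24 and 17.7 in Gcn5-AS and 15 and 12.1 in controls. Their partners Bub3 and Mad2 are adaptors with no kinase activity: *bub3.L* had 259 and 343 in Gcn5-AS and 276 and 307 in controls, *bub3.S* had 89.3 and 119 in Gcn5-AS and 72.4 and 128 in controls, and *mad2l1.S* had 45.3 and 61.6 in Gcn5-AS and 57.9 and 49.8 in controls. All 5 models overlapped between groups.

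**Figure D2:**
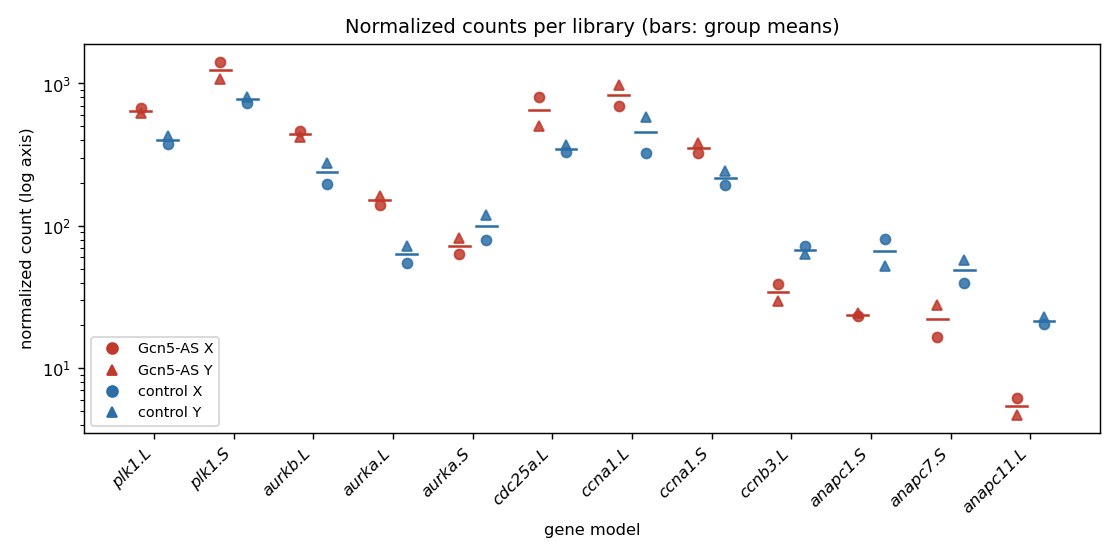
Normalized counts (log axis) of 12 member models in each library: Gcn5-AS X and Y in red, control X and Y in blue, bars at group means. The models were picked and are not typical of the members. Groups did not overlap in 39.7% of the 58 tested members, beside 51.4% of all models tested. *anapc11.L* passed the minimum through its control mean. Red points lie above blue ones for *plk1*, *aurkb.L*, *aurka.L*, *cdc25a.L* and *ccna1*, they overlap for *aurka.S*, and they lie below for *ccnb3.L*, *anapc1.S*, *anapc7.S* and *anapc11.L*.

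The APC/C is the ubiquitin ligase that ends mitosis. Of 13 subunit models taken by symbol, 10 passed the minimum, and of these 8 had a lower group mean in Gcn5-AS. Their median log2 ratio was -0.68, beside 0.03 over all models tested. Without *anapc11.L*, whose Gcn5-AS mean lay under the minimum, 7 of 9 were lower and the median was -0.60. Under either other scaling 9 of the 10 were lower. The median over all models also fell there, to -0.13 by total reads and -0.19 outside the 10 most abundant models. The call of 1 in 10 subunit models stands beside 8.63% of all models. Apc1, encoded by *anapc1*, is a large scaffold subunit. *anapc1.S* had 23.4 and 24.3 normalized counts in Gcn5-AS embryos, against 81.5 and 52.4 in controls. Both Gcn5-AS libraries were at close to the same level, below both controls (2.81-fold lower, log2 fold change -1.49 ± 0.44 SE, 95% interval -2.39 to -0.59, adjusted p = 0.0518, limma-voom). The call was lost under scaling by total reads (adjusted p = 0.184, limma-voom), and it held under scaling by reads outside the 10 most abundant models (0.0385). The log2 ratio of group means was -1.46 without Gcn5-AS X, -1.14 without control X and -1.77 without control Y. The call was lost in each of these fits too, which called a far smaller share of all models than the main fit.

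Other subunits lay below their controls without passing the test. *anapc11.L*, for the RING subunit that binds the ubiquitin-conjugating enzyme, had 6.18 and 4.67 normalized counts in Gcn5-AS and 20.4 and 22.9 in controls (3.98-fold lower, adjusted p = 0.157). Its Gcn5-AS mean lay under 10, so it passed the minimum through its control mean. *anapc7.S*, for a tetratricopeptide-repeat subunit, had 16.5 and 28.0 in Gcn5-AS and 39.7 and 57.8 in controls (2.19-fold lower, adjusted p = 0.151), and *anapc7.L* had 4.81 and 19.6 in Gcn5-AS and 15.5 and 21.5 in controls. Only the S homeolog of *anapc7* had separated groups.

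*cdc27.L*, for the subunit that receives the Fzr1 and Cdc20 activators, had 46.0 and 38.3 normalized counts in Gcn5-AS and 75.1 and 67.2 in controls (1.69-fold lower, adjusted p = 0.265), whereas *cdc27.S*, with 95.5 and 77.5 in Gcn5-AS and 99.2 and 65.9 in controls, overlapped. The small subunits *anapc15.S* and *anapc16.L* also lay below both controls. *anapc15.S* had 13.1 and 14 in Gcn5-AS and 30.6 and 25.6 in controls (2.07-fold lower, adjusted p = 0.228), and *anapc16.L* had 15.1 and 17.7 in Gcn5-AS and 27.9 and 20.2 in controls (adjusted p = 0.503). In the opposite direction, *anapc5.L* had 30.9 and 42.0 in Gcn5-AS and 30.0 and 14.8 in controls (1.63-fold, adjusted p = 0.497).

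*anapc4.L* overlapped, with 20.6 and 10.3 normalized counts in Gcn5-AS and 18.2 and 14.8 in controls. So did the activator *fzr1.L* (Cdh1), which keeps the APC/C active in G1, with 24.7 and 29.9 in Gcn5-AS and 15 and 28.2 in controls (adjusted p = 0.549). Counts of the subunit models were low, at most 99.2 in any library. The symbol rule did not take the subunit gene *cdc16*, so it is not in the subunit counts and medians. *cdc16.L* had 9.62 and 21.5 normalized counts in Gcn5-AS and 19.3 and 17.5 in controls. Its groups overlapped (log2 ratio of group means -0.24, adjusted p = 0.661, limma-voom).

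The symbol rule also took 4 models by name alone. *cdkn2aip* and *cdkn2aipnl* encode a binding partner of a tumour suppressor in mammals and its relative, and *ccnb1ip1* encodes a meiotic recombination factor there. *cdkn2aipnl.S* had 37.1 and 106 normalized counts in Gcn5-AS and 139 and 105 in controls (1.71-fold lower, adjusted p = 0.176). Gcn5-AS X was far below the other 3 libraries, so the value rests on that library. Without it the log2 ratio of group means was -0.21 and the adjusted p 0.888. Without Gcn5-AS Y it was -1.71 and the model was called (adjusted p = 0.00642), in the fit that called 20% of all models. *cdkn2aip.L* and *cdkn2aip.S* overlapped between groups, and *ccnb1ip1.L* had 1 read in all.

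Both homeologs passed the minimum for 19 member genes, and the L and S ratios of group means had the same sign in 13 and opposite signs in 6. The share with the same sign was 68.4%, beside 72.6% of all 2286 pairs, and many of these ratios lay near 0. The ratio of L to S reads within a library is free of the choice of scaling, and it was fitted with limma over 2286 gene pairs, a test added after the data were seen. Of the member pairs 1 was called, *aurka*, against 18 of all pairs, 0.787%. The numerator holds the *aurka.L* reads already called higher, so this call is no independent evidence of that rise. The *aurka* L to S ratio was 2.21 and 1.97 in Gcn5-AS libraries, against 0.69 and 0.62 in controls, so L reads outnumbered S reads in both Gcn5-AS libraries and S reads outnumbered L reads in both controls. The log2 difference was 1.68 ± 0.36 SE (95% interval 0.90 to 2.45, adjusted p = 0.0767). It lay between 1.59 and 1.76 when each library was left out in turn, with adjusted p-values of 0.161 to 0.383.

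For *cdc27* the log2 difference of the L to S ratio was -0.84 (adjusted p = 0.449), and for *ccnb1.2* it was -0.73 (adjusted p = 0.456). These pairs had an unadjusted p under 0.05, as 246 of the 2286 pairs did, and neither was called. For *plk1* the difference was 0.01 with a 95% interval of -0.55 to 0.56. Reads of near-identical homeologs can be assigned to either copy, and how the counting treated them is not given in the sources used here.

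**Figure D3:**
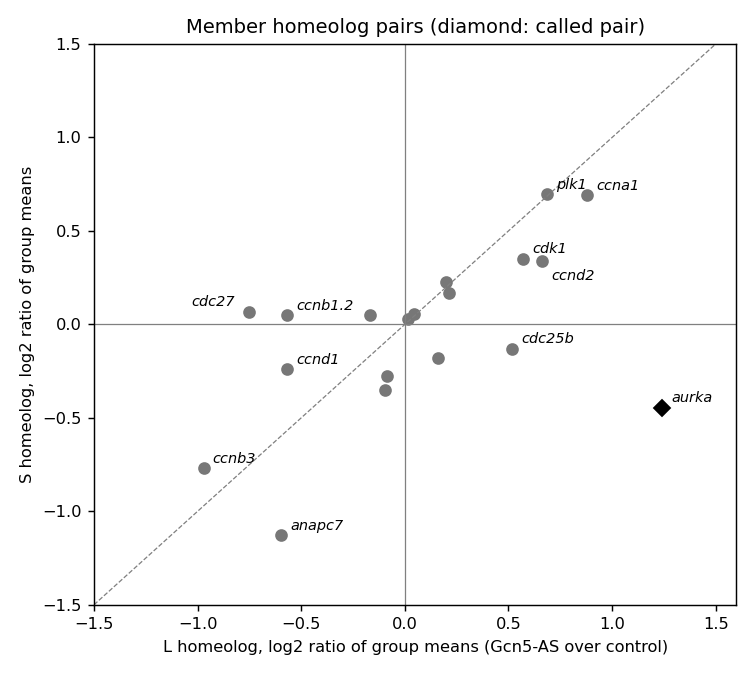
Log2 ratio of group means, Gcn5-AS over control, of the L homeolog (x axis) and the S homeolog (y axis) for the 19 member genes with both tested; the dashed line marks equality. The pair *aurka* (diamond) lies at 1.24 on the L axis and -0.45 on the S axis, whereas *plk1*, *ccna1* and *ccnb3* lie near the line.

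A set of 6 ratios between member genes within a library, which also do not depend on scaling, were computed after their values were seen. The *ccna1* to *ccna2* read ratio was 0.592 and 0.657 in Gcn5-AS embryos, against 0.332 and 0.382 in controls (1.75-fold, exact permutation p = 0.333, two-sided, adjusted p = 0.5 over 6 ratios). The smallest p that 2 against 2 libraries can give is 0.333, so no such ratio can pass a threshold. The ratio of *ccna1* to all B cyclin reads was 1.19 and 1.12 in Gcn5-AS and 0.330 and 0.773 in controls, with control X the lowest. APC/C subunit reads over those of *plk1*, *aurka* and *aurkb* came to 0.101 and 0.127 in Gcn5-AS and 0.310 and 0.222 in controls, and these groups did not overlap. The numerator includes *anapc11.L*, which passed the minimum through its control mean. The numerator was a role already seen to be mostly lower. The denominator was not the whole mitotic kinase role, as it left out *bub1* and *ttk*, whose group means differed little. Both parts were chosen after their values were seen, so the separation is no further evidence. The *cdc25a* to *cdc25b* ratio was 5.18 and 6.36 in Gcn5-AS and 3.28 and 4.63 in controls. Groups overlapped for *ccna2* over B cyclins, at 2 and 1.71 in Gcn5-AS and 0.993 and 2.02 in controls, and for *ccne1* over *ccne2*, at 4.60 and 2.52 in Gcn5-AS and 2.50 and 2.73 in controls.

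**Figure D4:**
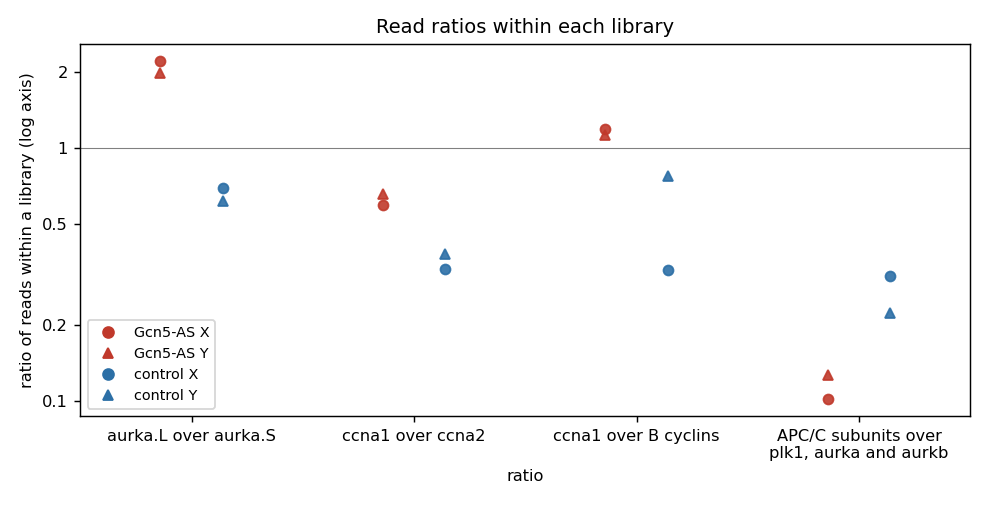
Read ratios within each library (log axis): Gcn5-AS X and Y in red, control X and Y in blue. The *aurka* L to S ratio is 1.97 to 2.21 in Gcn5-AS and 0.62 to 0.69 in controls, *ccna1* is higher relative to *ccna2* and to B cyclins in Gcn5-AS, and APC/C subunits are lower relative to *plk1*, *aurka* and *aurkb*.

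Other cell cycle genes outside the member rule were read from a list of 80 models, of which 65 passed the minimum. Of these 5 rose and 1 fell, 9.23%, beside 8.63% of all models tested, with 37 higher and 28 lower group means and a median log2 ratio of 0.16. Both homeologs of cyclin O, a cyclin needed for multiciliated cell formation, were called. *ccno.L* had 496 and 239 normalized counts in Gcn5-AS and 150.1 and 90.1 in controls (3.06-fold, adjusted p = 0.0293), and *ccno.S* had 168 and 123 in Gcn5-AS and 40.2 and 51.1 in controls (3.19-fold, adjusted p = 0.0179). Of the other Polo-like kinase models, *plk2.L* and *plk3.S* rose. *plk2.L* had 76.3 and 90.6 in Gcn5-AS and 19.8 and 30.9 in controls (3.29-fold, adjusted p = 0.0214), and *plk3.S* had 302 and 167 in Gcn5-AS and 97.0 and 108 in controls (2.29-fold, adjusted p = 0.081). *plk3.L* overlapped between groups (adjusted p = 0.978), *plk4.L* was not called (adjusted p = 0.246), and *plk4.S* lay under the minimum.

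*mos.L*, the kinase that holds the egg in meiotic arrest, had 3921 and 2244 normalized counts in Gcn5-AS and 796 and 1213 in controls (3.07-fold, adjusted p = 0.0306). *rb1.S*, for the retinoblastoma pocket protein that restrains E2F factors, had 21.3 and 44.8 in Gcn5-AS and 74.5 and 83.4 in controls (2.39-fold lower, adjusted p = 0.0696). Each of these 6 called models had separated groups, which a call makes likely. Groups did not overlap in 50.8% of the tested models of the list, beside 51.4% of all models tested. Under scaling by total reads 0 models of the list were called higher and 0 lower (limma-voom), and the number called higher was 0 without control X, 2 without Gcn5-AS X, 3 without control Y and 8 without Gcn5-AS Y.

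Of the members described above as largely maternal, *ccna1* had separated groups, *ccne1* overlapped between groups, and neither was called. Maternal markers were read beside them. Of 14 models of oocyte and maternal genes, 11 passed the minimum and *velo1.S* was at 0. Their summed level was 3169 to 4507 normalized counts in Gcn5-AS and 1451 to 1988 in controls, most of it from *mos*, and without *mos* it was 587 to 926 in Gcn5-AS and 655 to 775 in controls, where the groups overlapped. Their part in the member values was not tested.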

How the data were processed

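RNA-seq of whole embryos at stage 10.5 covered 2 Gcn5-AS and 2 control samples. Total RNA was freed of ribosomal RNA per the labels, and the authors aligned 75-nucleotide single-end reads with STAR (JGI 9.1 assembly, 1 mismatch). Read counter, annotation, strand handling and versions were not given in the sources used here, so overlapping or antisense genes may share reads.

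The deposited signal values are the authors' group means of reads divided by DESeq size factors. The deposited log2 fold changes and p-value columns hold the authors' own comparison, raw and adjusted, and were not used. Whole reads per library were recovered from the means as the only pair of read numbers matching each mean to a relative tolerance of 3e-14, for all 21410 Gcn5-AS and 21721 control means above 0. Precision is limited by 2 libraries per group and totals of 2351039 to 4093025 reads.

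Models with a mean of at least 10 were fitted with limma-voom (limma 3.58.1, R 4.3.3) over all 4 libraries, with the deposited size factors, and called at an adjusted p under 0.1. Neither a quasi-likelihood nor a negative binomial count test was run, and scripts were tested on simulated data. Ratios of group means used a pseudocount of 0.1. The homeolog ratio used an offset of 0.5. Permutation p-values were exact.

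Described members are all called ones, the 15 with the largest changes at a mean of at least 50, fixed regulators whatever their change, called genes of the other cell cycle list with the 4 largest, and *kat2a*, with the remaining members added by role. The members and lists were chosen with earlier results of these data known. Alternatives were other minimums, scalings, pseudocounts, a stricter threshold, summed homeologs and leaving out each library. Of the models, 20685 carried an identifier only and could not match by symbol.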

Additional observations from a re-analysis of the deposited data

How the results depend on the processing

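The members' counts of called models rest on few reads and 2 libraries per group. No member was called higher at an adjusted p under 0.05, under scaling by total reads, under scaling by reads outside the 10 most abundant models or with homeologs summed (0 each). None was called lower at an adjusted p under 0.05 or under scaling by total reads (0 each). At a minimum of 50 none was called lower either, but *anapc1.S*, at a mean of 45.4, was not in that fit. At the main setting 4 members were higher and 5 lower at an unadjusted p under 0.05 (limma-voom). The trended fit on normalized counts plus 5 called 2 lower, with *anapc11.L* added. Leaving out each library in turn gave 0 to 3 members higher and 0 to 3 lower, the 3 and 3 without Gcn5-AS Y, where 20% of all models were called, against 0.727% without control X. The members' median log2 ratio was -0.16 under total-read scaling and -0.17 under scaling outside the 10 most abundant. The median over all models was -0.13 and -0.19 there. At a minimum of 50 the members' median was 0.05, beside 0.13 over all models in that fit. With each library left out it was -0.070 to 0.071, beside -0.0023 to 0.061 over all models. For other cell cycle genes, higher calls were 0 under total-read scaling, 3 with homeologs summed and 0 to 8 with each library left out. Lower calls were 0 at an adjusted p under 0.05, with no minimum and under total-read scaling, 2 under scaling outside the 10 most abundant, with homeologs summed and in both trended fits, and 0 to 2 with each library left out. The causes were not tested.

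No called member changed sign in these settings. Under total-read scaling 9 of the 58 tested members changed the sign of their log2 ratio of group means, among them 2 Cdk models, and outside the 10 most abundant 13 did, among them 4 Cdk models. The values that follow are those log2 ratios, for the 34 members recomputed under the alternatives. Not all of these had a value at a minimum of 50 or with homeologs summed. Under total-read scaling and then outside the 10 most abundant, *ccna2.L* was at -0.11 and -0.18, *ccna2.S* at -0.12 and -0.15, and *ccnb1.2.S* at -0.23 and -0.22. Outside the 10 most abundant, *pkmyt1.L* was at -0.048 and *ccne1.S* at -0.024. With homeologs summed, the value standing for *ccnb1.2.S* was -0.39, for *cdc25b.S* 0.37 and for *aurka.S* 0.46. With each library left out in turn, 8 to 17 of the 58 changed sign, and the ratios ran from -0.23 to 0.26 for *bub1.L*, -0.15 to 0.21 for *ccna2.L*, -0.37 to 0.40 for *ccna2.S*, -0.45 to 0.83 for *ccnb1.2.S*, -0.050 to 0.51 for *ccne1.L*, -0.016 to 0.37 for *ccne1.S*, -0.59 to 0.29 for *ccne2.L*, -0.65 to 0.020 for *ccne2.S*, -0.014 to 0.90 for *cdc25b.L*, -0.92 to 0.38 for *cdc25b.S*, -0.61 to 0.29 for *cdc25c.L*, -0.048 to 0.86 for *fzr1.L*, -0.65 to 0.81 for *pkmyt1.L* and -0.71 to 0.39 for *ttk.S*. The *aurka* homeolog ratio, chosen after seeing the data, was 1.61 with an offset of 5 and 1.59 to 1.76 with each library left out. No paired analysis was possible because the columns carry no replicate numbers. A lone remaining library was assumed to vary like the other group.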

Other observations

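Members under the minimum were not tested in the main fit, and none of them was called when every model with a read was fitted. *anapc13.1.L* had 4 and 2 reads in Gcn5-AS libraries and 17 and 3 in controls, and *anapc16.S* had 0 and 7 in Gcn5-AS and 5 and 5 in controls. *cdc25a.S* had reads in 1 library of each group, 11 in Gcn5-AS and 12 in controls, and *cdc25c.S* had 9 and 10 in Gcn5-AS and 23 and 3 in controls. *ccng1.L* had 4 and 16 in Gcn5-AS and 10 and 4 in controls, and *mad2l1.L* had 11 and 3 in Gcn5-AS and 8 and 1 in controls. *cdk14.L* and *cdk15.L* had 1 and 2 reads in all Gcn5-AS libraries and 3 and 4 in all controls, and *cdk14.S* and *cdk6.S* had none. The model nearest below the minimum was *anapc15.L*, at a mean of 9.62 normalized counts, and the nearest above it was *cdk10.L*, at 10.4.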
